A study of Mus musculus with 16 samples.

Results

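The cells described here are 84 of 4186 kept cells of cultured mouse colon tumour organoids, chosen by their transcripts of Ccl5, Il1a, Smpx, S100a7a, S100g and S100a4. Kept cells were barcodes with at least 1000 genes, at least 2000 unique molecular identifiers (UMIs) and at most 20% of UMIs from mitochondrial genes. The score was the mean over the 6 genes of the natural log of 1 plus the UMIs per 10000 UMIs of the cell. The highest 2% of kept cells of both libraries together were taken, and they are called high-score cells below. Measured values of the 6 genes chose the cells, so their levels are given as a description.

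The organoids had been grown from AOM/DSS tumours, which arise in the mouse colon after a carcinogen is combined with an agent that injures the gut lining. The knockout library carried the genotype KMT9ko/ko and was labelled plus TAM, and the control library carried KMT9wt/wt and was labelled minus TAM, both at passage 14, and the names of both matrices give day 5. KMT9 is a histone methyltransferase made of the catalytic subunit N6amt1 and its partner Trmt112. Genotype and TAM treatment go together, each group is deposited as 1 matrix of droplet-based 3′ single-cell RNA counts. The labels list 8 records per group and do not say whether these are runs of 1 library, and the cells cannot be assigned to them, so each group was taken as 1 library without replicates: no test was made, and every interval below covers counting error only. Organoids are grown from epithelium and hold no blood vessels or immune system. The sources used here do not say how many mice or tumours the cultures came from.

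Ccl5 is a chemokine that draws T cells and other leukocytes, and it is induced by both interferon and NF-kB signalling. Il1a is an interleukin that acts as an alarm signal when cells are damaged, because its precursor is already active when it leaves a dying cell. S100a7a, S100g and S100a4 are small calcium-binding proteins: S100a7a is the mouse psoriasin-like protein of squamous epithelium, S100g is the vitamin D-induced calbindin of absorptive cells, and S100a4 is linked to cell motility. Smpx is a small protein of striated muscle. The gene set therefore joins danger signals, calcium-binding proteins and a muscle gene, and the question put to it is whether its bearers are dying cells or cells in an inflammatory state.

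The 84 cells were 68 of 1499 kept knockout cells (4.54%, exact Clopper-Pearson 95% interval 3.54% to 5.72%) and 16 of 2687 kept control cells (0.595%, 0.341% to 0.965%). The lowest score in the set was 0.3224 and the highest 1.461, and the first cell outside it scored 0.3221. Within 10% of the lowest score lay 22 cells above it and 22 below it, so the boundary cuts through a range. A score of 0 was found in 69.4% of kept cells.

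The knockout matrix held 2078 barcodes and the control matrix 3618, with medians of 24272 and 24759 UMIs per kept cell. A barcode was present in both matrices in 498 cases. Among high-score cells this was so for 32 of 68 knockout cells (47.1%) and 4 of 16 control cells (25%). Among other kept cells it was so for 302 of 1431 knockout cells (21.1%) and 174 of 2671 control cells (6.51%). Each of these 36 high-score cells was the larger of its 2 copies, by 28.5 to 75.5 times in UMIs. Without any shared barcode, high-score cells made up 36 of 1165 knockout cells (3.09%, 2.17% to 4.25%) and 12 of 2509 control cells (0.478%, 0.247% to 0.834%).

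The 6 genes rarely stood together in a cell. Of the 84 cells, 31 had UMIs of 1 of the 6 genes, 30 of 2, 17 of 3 and 6 of 4, and no cell had 5 or 6. A single gene made up over 90% of the 6-gene UMIs in 49 cells. By the gene with the most UMIs, called the leading gene here (with 5 ties), Ccl5 led in 28 cells, S100a7a in 26, S100a4 in 10, S100g in 10, Smpx in 6 and Il1a in 4. The most frequent pair was S100a7a with S100a4, present together in 28 cells, while Smpx and S100g were never found in the same high-score cell.

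**Figure D1:**
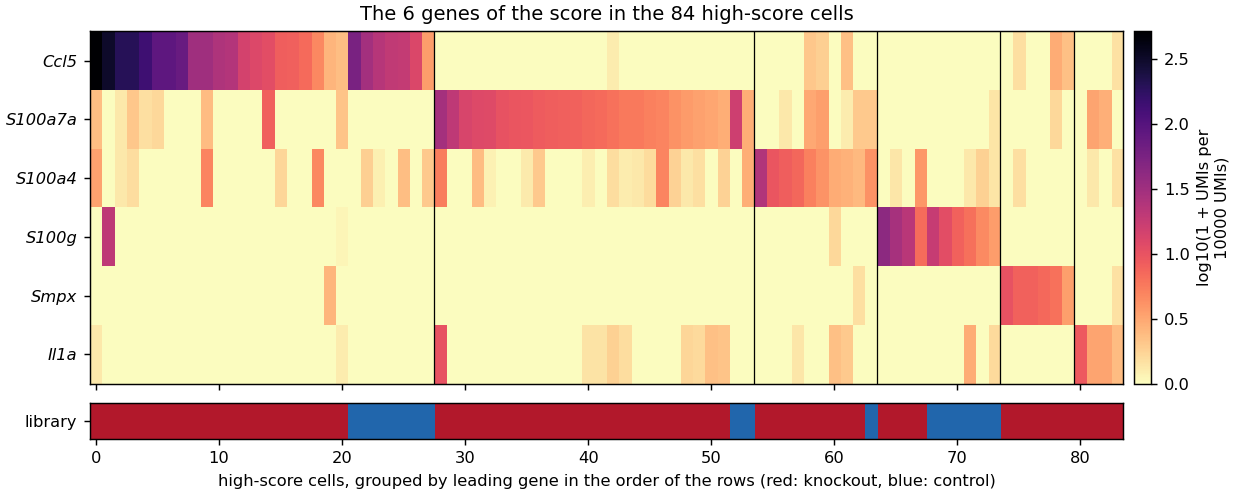
Each column is 1 of the 84 high-score cells, grouped by leading gene, and each row is 1 of the 6 genes. Colour gives log10 of 1 plus UMIs per 10000 UMIs, and the strip below gives the library. The dark blocks lie on the diagonal: 28 cells carry mainly Ccl5 and 26 mainly S100a7a, and no cell carries 5 of the genes.

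On mm10 the genes lie at chr11:83525778-83530518 (Ccl5), chr2:129299610-129309972 (Il1a), chrX:157698910-157752591 (Smpx), chr3:90654017-90658669 (S100a7a), chrX:162961992-162964599 (S100g) and chr3:90603771-90606045 (S100a4). Il1a shares its span with the antisense gene Gm14023.

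Ccl5 had 4202 UMIs in 29 of the 68 high-score knockout cells, against 153 UMIs in 122 of the 1431 other kept knockout cells. In the control library it had 449 UMIs in 7 of 16 high-score cells, against 94 UMIs in 50 of 2671 other cells. A single knockout cell held 1553 Ccl5 UMIs, 33.4% of those of all 84 cells, and the 5 highest cells held 72.7%. Il1a was sparse: 72 UMIs in 18 high-score knockout cells and 15 UMIs in 2 high-score control cells, with at most 19 in a cell.

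S100a7a was the most widespread of the 6 in the knockout set, with 630 UMIs in 40 of 68 high-score cells, against 12.2% of other kept knockout cells with a UMI. Its control count came mainly from 1 cell, which held 98 of the 106 UMIs in 4 of 16 high-score cells. S100a4 had 188 UMIs in 35 high-score knockout cells and 34 UMIs in 9 high-score control cells, and 22.6% of other knockout and 11.2% of other control cells also had a UMI. S100g had 268 UMIs in 7 high-score knockout cells, 152 of them in 1 cell, and 103 UMIs in 6 high-score control cells. Smpx had 49 UMIs in 9 high-score knockout cells and 0 in the 16 high-score control cells, which allows a level of up to 5.87 CPM (UMIs per 1000000 UMIs), above the 2.22 CPM of the other control cells.

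Leaving each gene out of the score in turn and taking the highest 2% anew gives a view of that gene that the rule did not use. Cells so chosen in the knockout library had a UMI of S100a4 in 35.3%, against 23.3% of the rest, of S100a7a in 25.4% against 13.8%, and of Il1a in 12.1% against 4.88%. Ccl5 was seen in 13.7% of the cells chosen without it and in 9.89% of the rest, and S100g in 2.70% and 1.82%. Smpx had no UMI in the 66 cells chosen without it, against 6.98% of the rest. Median depth in these sets lay between 23829 and 29077 UMIs for chosen knockout cells and between 24114 and 24285 for the rest. By summed level, Ccl5 had 907 CPM in the knockout cells chosen without it and 68.2 CPM in the rest, from 10 cells with a UMI. In the control library S100a4 was seen in 31.3% of the chosen cells against 11.4% of the rest and Il1a in 11.1% against 0.899%, but S100a7a in 4.76% against 5.29%, and Ccl5 and S100g in 0 of 11 and 0 of 10 chosen cells. S100a4 and Il1a were thus more frequent among chosen cells in both libraries, and S100a7a in the knockout library. The control share of Il1a rests on 2 of 18 chosen cells, with 15 UMIs.

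The depth and mitochondrial share of high-score cells had medians close to those of the other cells, with somewhat more cells at the low ends of both in the knockout library. High-score knockout cells had a median of 27836 UMIs (quartiles 14896 and 35449), against 24214 (17967 and 31650) in other knockout cells. High-score control cells had a median of 28914 UMIs, against 24748 in other control cells. Mitochondrial transcripts, whose share rises in damaged cells that have lost cytoplasmic RNA, made up a median of 2.75% in high-score and 2.87% in other knockout cells, and 2.18% in high-score and 2.88% in other control cells. Cells with 10% or more were 2 of 68 high-score and 63 of 1431 other knockout cells, and 1 of 16 high-score and 96 of 2671 other control cells. Cells with under 0.5% were 3 of 68 high-score (4.41%, 0.919 to 12.4%) and 20 of 1431 other knockout cells (1.40%), and 0 of 16 high-score and 23 of 2671 other control cells. Cells under 5000 UMIs were 7 of 68 high-score (10.3%, 4.24 to 20.1%) and 87 of 1431 other knockout cells (6.08%), and 1 of 16 high-score and 142 of 2671 other control cells (5.32%).

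Thinned to 5000 UMIs each, high-score knockout cells had a median of 1924 genes and other knockout cells 1966, while high-score control cells had 2059 and other control cells 2043. The cells under 5000 UMIs were left out of this. Malat1, a nuclear RNA, made up a median of 2.29% of UMIs in high-score and 1.60% in other knockout cells, and 0.719% in high-score and 0.974% in other control cells. The filter removed 98 knockout and 122 control barcodes with 2000 UMIs or more and over 20% mitochondrial UMIs. Of these, 0 and 0 reached the lowest high-score value, which allows shares of up to 3.69% and 2.98% by the exact interval. Barcodes under 2000 UMIs are not among them, whatever their mitochondrial share.

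**Figure D2:**
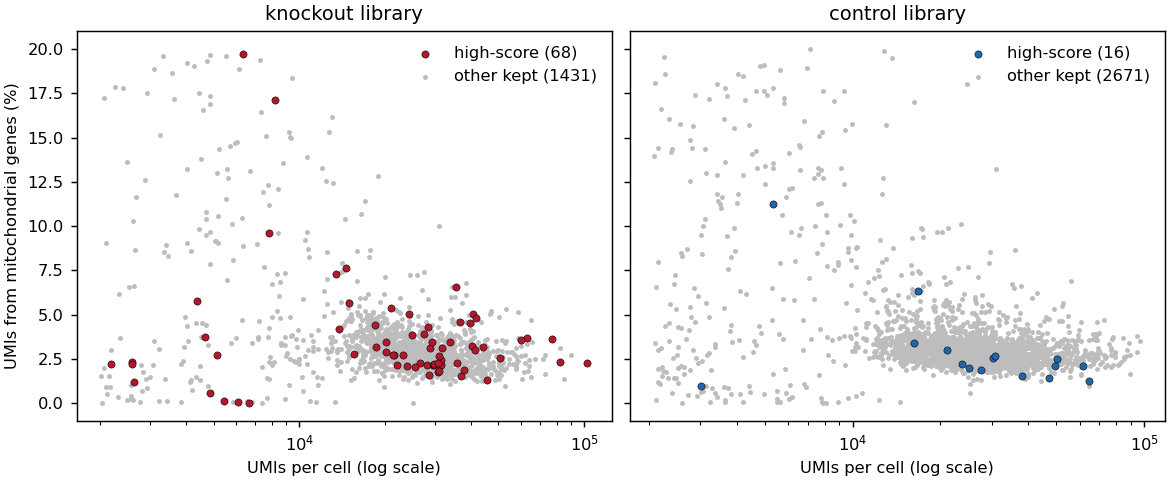
UMIs per cell (log scale) against the percentage of UMIs from mitochondrial genes, with high-score cells coloured and other kept cells in grey, knockout library left and control library right. Most high-score cells lie in the dense cloud of other cells, with medians of 2.75% and 2.18%; 2 knockout cells and 1 control cell lie at 10% or more.

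Over all high-score cells of a library, no measured gene of the death machinery passed 2-fold. This count says little of lists this short, since only 4.0% and 3.40% of all genes were higher. In the apoptosis and pyroptosis list, of caspases, gasdermins and BCL2-family killers, 0 of 8 measured genes were 2-fold higher in high-score than in other knockout cells and 0 of 9 in the control library. The list's median log2 ratio was 0.10 in the knockout library and 0.18 in the control library, beside -0.01 and 0.07 over all genes measured, and both signs turn without shared barcodes (-0.08 and -0.04). Measured here means 50 CPM or more in the high-score or the other cells, so a gene low in the other cells enters only where high-score cells are high. None of 15 measured p53 target genes in the knockout library and none of 14 in the control library passed 2-fold, and Cdkn1a, the p53-induced cell cycle inhibitor, had 675 CPM in high-score and 605 CPM in other knockout cells. The 4 Il1a-led cells were apart in this, with 5 of 16 p53 targets higher and 1 lower, against 12.5% and 11.9% of all genes. Of the apoptosis and pyroptosis list they had 2 of 10 genes higher and 1 lower. The 6 Smpx-led cells had 3 of 11 higher and 2 lower, against 16.7% and 12.5% of all genes. Ccl5-led cells had 1 of 10 higher and S100a7a-led cells 1 of 9 higher and 1 lower. S100g-led and S100a4-led cells had 0 of 8 higher. NF-kB feedback genes, which rise in most inflammatory states, had median log2 ratios over all high-score cells of 0.22 in the knockout and -0.25 in the control library. Neither sign is firm: thinned to 5000 UMIs the medians were -0.047 and 0.86, as means over cells -0.039 and 0.46. Of the NF-kB genes, Tnip1, an inhibitor of NF-kB signalling, had 108 CPM in high-score and 45.1 CPM in other knockout cells, while Ier3, an early response gene, had 493 and 772 CPM.

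The 84 cells carried epithelial markers. Epcam was detected in 66 of 68 high-score knockout and 16 of 16 high-score control cells, and Krt8, a keratin of simple epithelium, in 67 and 16. Ptprc, the surface phosphatase of all leukocytes, had 0 UMIs in the 84 cells, as had Cd3e of T cells, Tyrobp and Csf1r of myeloid cells, Cd79a of B cells, Col1a1 of fibroblasts and Pecam1 of endothelium. Trac, a T cell receptor gene, had 1 UMI in 1 high-score cell and 16 UMIs in 14 other cells. Cd68, a lysosomal gene that epithelium also transcribes, had 30 UMIs in 17 high-score knockout cells and 504 UMIs in 349 other knockout cells. Over the whole T and NK cell list of 23 genes the summed level was 42.1 CPM in high-score and 8.89 CPM in other knockout cells, and 27.4 and 5.55 CPM in the control library. Of the 79 knockout UMIs, 75 came from Trbc1, a constant segment of the T cell receptor, in 17 cells (121 of the other cells also had it), and 12 of the 14 control UMIs were Gzma in 1 cell. Cdh5, a cadherin of endothelium, had 16 UMIs in 9 high-score knockout cells and 638 UMIs in 396 other knockout cells, and the endothelial list summed to 15.5 CPM in high-score and 35.0 CPM in other knockout cells. The myeloid list summed to 107 and 86.2 CPM in high-score and other knockout cells, mostly from Cd14. The part of such transcripts in the results was not tested.

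Compared with other kept cells, and with the 6 genes of the score set aside, high-score knockout cells had 129 of 3223 measured genes at 2-fold or more higher (4.0%) and 83 lower (2.58%). High-score control cells had 117 of 3441 higher (3.40%) and 68 lower (1.98%). Of 2938 genes measured in both libraries, 45 were higher in both, which is 52.9% of those higher in the knockout library and 60.8% of those higher in the control library, and 25 were lower in both (38.5% and 41.7%). Only 3 genes passed 2-fold in opposite directions.

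Of the 15 genes with the largest rise in both libraries, 6 belong to the interferon response: Cxcl10, Ifit1, Rsad2, Ifit3, Oasl1 and Ifi203. Cxcl10, a chemokine for T cells, had 328 CPM in high-score and 43.6 CPM in other knockout cells (7.52-fold, log2 2.91, 2.77 to 3.05), and 305 and 18.9 CPM in high-score and other control cells (16.1-fold). Ifit1, which binds viral RNA, had 361 and 57.0 CPM in high-score and other knockout cells (6.33-fold) and 531 and 41.7 CPM in the control library (12.7-fold). Rsad2, the antiviral enzyme viperin, was 5.93-fold higher in high-score cells of the knockout library and 28.7-fold of the control library. Few control cells carry these folds. A Ccl5-led control cell had 19.4 Rsad2 UMIs per 10000 and another 5.99, and no other high-score control cell passed 1.01. For Ifit1 the same cells had 36.8 and 39.5 per 10000, and no other high-score control cell passed 4.29. Oasl1, of the OAS family, was 3.62-fold and 14.5-fold higher. Ifit3 was 5.71-fold and 8.26-fold higher, though reads of Ifit3 may be split with its near-identical copy Ifit3b.

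Others among the 15 included genes known from squamous or regenerating epithelium. Sprr1a, a cornified envelope precursor that is also raised in healing gut epithelium, had 1418 CPM in high-score and 173 CPM in other knockout cells (8.19-fold), and 104 and 12.8 CPM in high-score and other control cells (8.10-fold, in 4 of 16 cells). The control value rests mainly on 1 S100g-led cell, which held 46 of the 52 Sprr1a UMIs of the 6 S100g-led control cells. Clu, the secreted chaperone clusterin that marks revival stem cells of the injured gut, was 4.37-fold and 2.86-fold higher, though in the control library not with the top 1% of cells (log2 -0.046). Emp1, a membrane protein, was 3.66-fold and 2.99-fold higher, Tm4sf1, a tetraspanin-like protein, 3.39-fold and 3.83-fold, and Cav2, of caveolae, 3.03-fold and 3.99-fold. Tnfrsf23, a decoy receptor for TRAIL, was 2.93-fold and 5.77-fold higher. The other 3 were Khdc1a, Dynap and Cwh43, between 3.37-fold and 5.85-fold higher.

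The 10 lowest genes included 3 of Wnt signalling, which no list covered. Nkd1, a feedback inhibitor of Wnt signalling, had 189 CPM in high-score and 740 CPM in other knockout cells, and 106 and 589 CPM in high-score and other control cells (log2 -1.97 and -2.48). Wif1, a secreted Wnt inhibitor, had 166 and 496 CPM in high-score and other knockout cells, and 21.5 and 269 CPM in high-score and other control cells. Within the same clusters its knockout ratio was near 0 (log2 0.030). Wnt6, a ligand, had 63.5 and 311 CPM, and 92.0 and 267 CPM. Smoc2, a matricellular protein of intestinal stem cells, had 25.1 and 110 CPM, and 33.3 and 156 CPM. Also lower were Ptn, a growth factor, Ifitm1, an interferon-induced membrane protein that is high in Wnt-active intestinal tumours, the early gene Nr4a1, Hes6, Gstm1 and Fgfrl1, with log2 ratios from -1.40 to -2.68. Ifitm1 fell, with 357 CPM in high-score and 1531 CPM in other knockout cells, while the other interferon-induced genes named here rose. The fall was not shared by all high-score cells. In the 6 Smpx-led knockout cells Nkd1, Wif1 and Wnt6 had 1936, 2029 and 534 CPM, above the levels of other knockout cells. Smoc2 and Ifitm1, with 80.1 and 1108 CPM in the Smpx-led cells, lay below them.

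**Figure D3:**
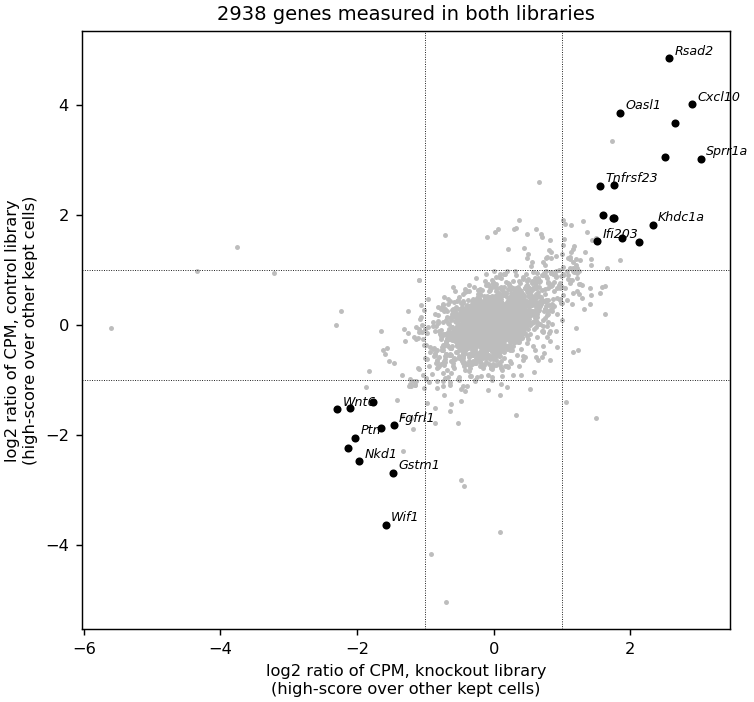
Log2 ratio of CPM, high-score over other kept cells, for 2938 genes measured in both libraries, with the knockout library on the x axis and the control library on the y axis; dotted lines mark 2-fold. Black points are the 15 most raised and 10 most lowered genes, some of them named: Rsad2 and Cxcl10 lie at the upper right, Wif1 and Nkd1 at the lower left.

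By lists, which were chosen with earlier results of these data known, the interferon response had 6 of 13 measured genes 2-fold higher in high-score knockout cells and 10 of 17 in high-score control cells, with none lower and medians of 0.72 and 1.65 on the log2 scale. Over all genes 4.0% and 3.40% were higher, and against cells of the same clusters the knockout medians of the interferon, fetal-like and cornified lists were 0.16, 0.16 and 0.13. Cornified envelope and squamous genes had 7 of 12 higher in the knockout library and 8 of 12 higher and 1 lower in the control library, with medians of 1.19 and 1.11. Loricrin, Lor, the main protein of the cornified envelope, had 1163 CPM in high-score and 467 CPM in other knockout cells, and 1192 and 321 CPM in high-score and other control cells. The fetal-like and YAP target list, of genes that return in regenerating gut, had 6 of 18 higher and 1 lower in the knockout library and 7 of 16 higher in the control library. S100 genes outside the score had 3 of 7 and 2 of 6 higher: S100a16 had 1325 and 491 CPM in high-score and other knockout cells, and 488 and 228 CPM in the control library. Chemokines other than Ccl5 had 3 of 5 and 6 of 8 higher. In the knockout library this count moves with the level required, since the list's median was 1.27 at 50 CPM and -0.10 at 20 CPM.

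**Figure D4:**
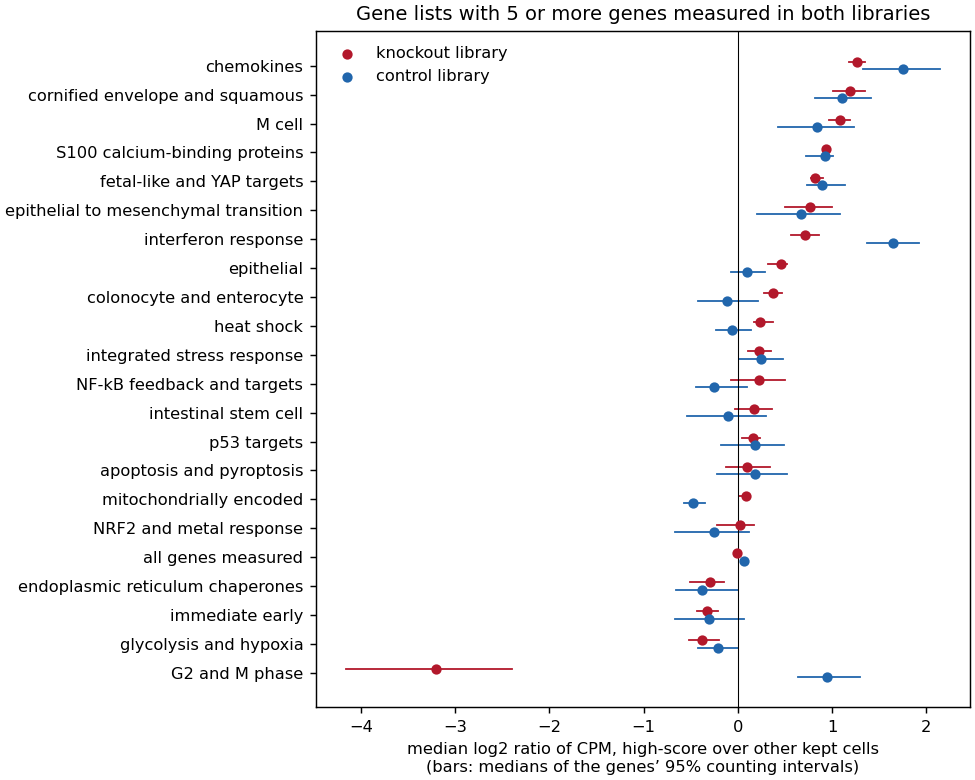
Median log2 ratio of CPM, high-score over other kept cells, for lists with 5 or more genes measured in both libraries; red points are the knockout library and blue points the control library, and bars are the medians of the genes' 95% counting intervals. The chemokine, cornified and interferon lists lie to the right in both libraries and the apoptosis list near 0; G2 and M phase genes lie at -3.21 in the knockout library and 0.94 in the control library.

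Summed over the cells led by Ccl5, interferon genes were high, though not in every such cell. In the 21 Ccl5-led knockout cells 12 of 18 measured interferon genes were 2-fold higher than in other kept cells, against 4.31% of all genes measured, with a median log2 ratio of 2.04. In the 7 Ccl5-led control cells it was 17 of 20, against 7.70% of all genes, with a median of 2.78. At least 2-fold lower were 2.47% of all genes in the knockout and 2.88% in the control library. With barcodes of 1 matrix alone it was 10 of 15 in 10 knockout cells, against 8.60% of all genes higher and 8.94% lower, and 17 of 19 in 5 control cells, against 6.44% and 5.57%. Without Ccl5-led cells, the list's median over the remaining high-score cells was -0.20 in the knockout library and 0.14 in the control library, and Cxcl10 lay at log2 -1.24 and -2.56. Ccl5 is itself an interferon-induced gene, so cells chosen for Ccl5 and the level of this list are not independent. A gene counted as measured at 50 CPM or more in the group or in other kept cells. Genes that entered only through the group cannot count as lower, here and in the other leading-gene groups. Over all high-score cells 13 genes of the interferon list were measured in the knockout and 17 in the control library.

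Cxcl10 had 1136 CPM in Ccl5-led and 43.6 CPM in other knockout cells (26.0-fold), with UMIs in 12 of 21 cells, and 776 CPM in Ccl5-led and 18.9 CPM in other control cells (41.0-fold), with UMIs in 5 of 7. Isg15, a ubiquitin-like protein, was present in 21 of 21 and 7 of 7 cells and was 6.57-fold and 6.59-fold higher. Ifih1, a sensor of viral RNA, was 6.84-fold and 8.10-fold higher, and Irf7, a factor that amplifies the interferon response, was 1.91-fold higher in the knockout library. Bst2, a tether of budding viruses, had 291 CPM in Ccl5-led and 282 CPM in other knockout cells, and 391 and 195 CPM in Ccl5-led and other control cells.

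The response was concentrated in some of these cells. By the list's summed level per 10000 UMIs, Ccl5-led knockout cells ran between 11.3 and 234 with a median of 23, against a median of 10.8 in other knockout cells, and Ccl5-led control cells between 6.32 and 143 with a median of 57.0, against 8.38. High Ccl5 did not always go with a high list level. The knockout cells with 1553, 587 and 366 Ccl5 UMIs had list levels of 20.1, 15.9 and 11.3. Those with 612 and 262 Ccl5 UMIs had 234 and 42.0. Of the 28 Ccl5-led cells, 14 lay above the 95th percentile of the other cells of their library. Among S100a7a-led cells it was 2 of 26, among S100a4-led 2 of 10, among S100g-led 1 of 10, and among Smpx-led and Il1a-led cells 0 of 6 and 0 of 4. With barcodes of 1 matrix alone it was 7 of 15 Ccl5-led cells, and Cxcl10 was then 12.9-fold higher in 10 knockout and 18.4-fold in 5 control cells. Single cells weigh on these folds: 1 cell held 31.5% of the Cxcl10 UMIs of the 21 knockout cells, and 1 held 68.4% of those of the 7 control cells.

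Among cells below the cut-off, those with a Ccl5 UMI held the response in a minority. Of the highest 2% by Ifit1, Cxcl10, Rsad2, Oasl1 and Isg15, 10 were among the 122 such knockout cells (8.20%), against 31 of the 1309 without a Ccl5 UMI (2.37%), and 5 among the 50 such control cells (10%), against 21 of 2621 (0.801%). With barcodes of 1 matrix alone it was 9 of 98 against 24 of 1031 knockout cells (9.18% and 2.33%). In the control library it was then 2 of 43 (4.65%, 0.568% to 15.8%) against 16 of 2454 (0.652%). Above the 95th percentile of the whole list lay 8.20% of knockout cells with and 4.74% without a Ccl5 UMI. Of control cells it was 16% and 4.81%. Median depth was 28196 UMIs with and 24060 without a Ccl5 UMI in the knockout library and 27479 and 24681 in the control library, and its part was not tested. The list's median level over all these cells was 10.8 in the 122 knockout cells with a Ccl5 UMI and 10.8 in the 1309 without, and 9.75 in the 50 control cells with one and 8.37 in the 2621 without. Among the interferons, Ifnl2 and Ifnl3, of the lambda type that acts on epithelium, had 18 and 11 UMIs in 1 Ccl5-led knockout cell, and Ifnl3 had 7 UMIs in 1 Ccl5-led control cell. Ifnb1 had 0 UMIs in all 28. The NF-kB targets Nfkbia and Tnfaip3 had 581 and 59.7 CPM in Ccl5-led knockout cells, against 634 and 43.1 CPM in other knockout cells.

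**Figure D5:**
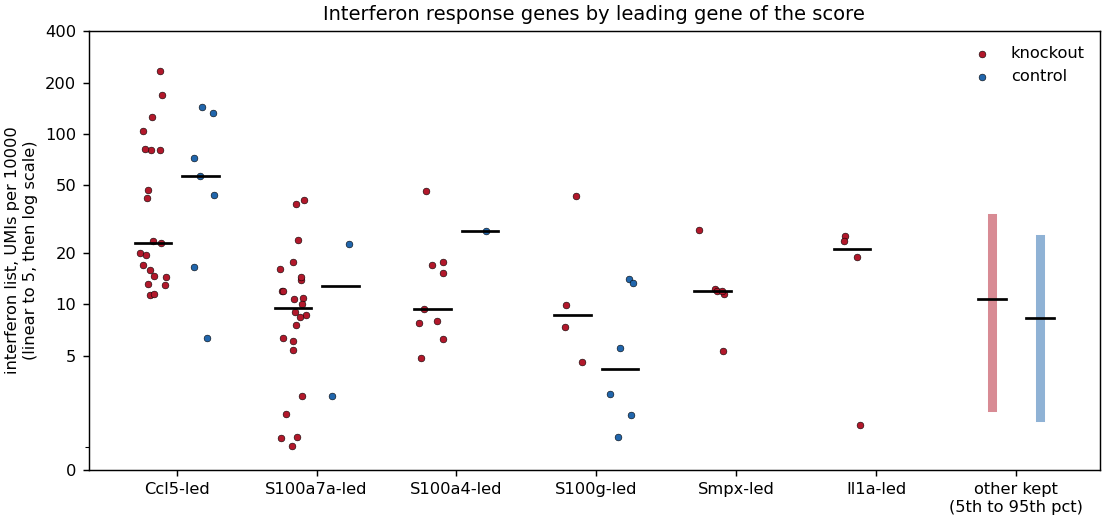
Summed UMIs of the interferon list per 10000 UMIs in each high-score cell by leading gene, knockout cells red and to the left of control cells in blue; black bars are medians and the shaded bars at the right span the 5th to 95th percentile of other kept cells. The scale is linear to 5 and logarithmic above. Ccl5-led cells reach 234 and 143, and 14 of 28 lie above the 95th percentile of their library.

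The 300 bases around the starts of 4 genes that rose with Ccl5 are shown because they can be searched for the interferon-stimulated response element, the site at which interferon-activated factors bind. They run from 250 bases before to 50 after the start, from RefSeq on GRCm38.p6, and lie at chr5:92348840-92349139 (minus strand) for Cxcl10, chr19:34640639-34640938 (plus) for Ifit1, chr12:26456403-26456702 (minus) for Rsad2 and chr4:156200769-156201068 (minus) for Isg15. Capitals mark each match to GAAA, any 2 bases and GAAA again, searched on both strands, so that a match on the opposite strand reads TTTC, any 2 bases and TTTC.
Cxcl10: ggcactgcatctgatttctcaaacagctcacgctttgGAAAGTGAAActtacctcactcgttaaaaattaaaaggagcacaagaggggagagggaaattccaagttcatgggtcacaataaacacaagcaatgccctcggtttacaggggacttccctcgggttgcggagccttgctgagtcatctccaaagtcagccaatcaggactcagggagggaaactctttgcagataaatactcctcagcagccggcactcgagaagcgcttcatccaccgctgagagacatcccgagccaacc
Ifit1: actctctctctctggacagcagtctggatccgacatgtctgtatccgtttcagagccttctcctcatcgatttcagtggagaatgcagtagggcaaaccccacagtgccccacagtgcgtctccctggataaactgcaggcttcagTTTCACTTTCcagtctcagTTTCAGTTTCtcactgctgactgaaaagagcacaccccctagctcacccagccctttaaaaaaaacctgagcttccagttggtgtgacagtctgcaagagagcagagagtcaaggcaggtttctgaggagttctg
Rsad2: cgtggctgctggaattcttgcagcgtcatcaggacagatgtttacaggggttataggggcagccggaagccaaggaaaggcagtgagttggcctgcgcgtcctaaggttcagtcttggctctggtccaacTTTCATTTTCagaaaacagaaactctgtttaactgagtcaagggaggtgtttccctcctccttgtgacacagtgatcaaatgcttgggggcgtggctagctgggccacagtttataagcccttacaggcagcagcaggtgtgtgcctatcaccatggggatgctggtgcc
Isg15: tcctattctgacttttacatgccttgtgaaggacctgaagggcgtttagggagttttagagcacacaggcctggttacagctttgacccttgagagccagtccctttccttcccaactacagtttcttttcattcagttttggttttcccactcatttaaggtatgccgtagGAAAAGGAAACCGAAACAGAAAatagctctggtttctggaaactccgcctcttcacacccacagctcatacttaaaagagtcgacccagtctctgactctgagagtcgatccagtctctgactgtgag
Cxcl10 held 1 match, starting 213 bases before the gene start, Ifit1 held 2, at 104 and 85 bases, Rsad2 held 1, at 120 bases, and Isg15 held 3 overlapping ones between 78 and 66 bases. Of 32851 promoter windows of the same length, 1131 held a match (3.44%), and of the 21 interferon-list genes with a window, 13 did. The windows of Il1a, Smpx, S100a7a, S100g and S100a4 held none. Ccl5 had no window in the set used here, so it was not searched. A consensus NF-kB site was found in 1907 of all windows. Cxcl10 held 2 matches and Ifit1, Rsad2 and Isg15 none. Oasl1 had 366 CPM in Ccl5-led and 33.3 CPM in other knockout cells, and 1117 CPM in Ccl5-led and 32.4 CPM in other control cells. Its window held no match to the interferon element and 3 to the NF-kB consensus, and is not printed. A match of letters is a description of the window only.

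S100a7a-led cells were high in cornified envelope and regenerative genes, as were other groups. Among Ccl5-led knockout cells 4 of 11 cornified and 5 of 18 fetal-like genes were higher, with 1 of the second list lower, and among S100g-led control cells 7 of 11 and 6 of 16. All but 2 of the 26 S100a7a-led cells were knockout cells. Of the 26, 22 lay in 1 cluster, whose own leading genes include Sprr1a, Clu and Pla2g4a. Among the highest 2% of kept cells by Tmprss11d, Asprv1 and Krt16, a squamous set, were 0 of the 26. Of the Ccl5-led cells 5 of 28 were in that set, and of the S100a4-led cells 2 of 10. In the 24 knockout cells Sprr1a had 2048 CPM, against 173 CPM in other knockout cells (11.8-fold), with UMIs in 19 cells. Clu was 6.31-fold higher, Ctgf, a target of YAP, 7.85-fold, Il34, a cytokine for macrophages, 7.89-fold, Psca, a surface antigen of the prostate and stomach, 7.65-fold, and Pla2g4a, which releases arachidonic acid, 7.18-fold. The fetal-like and YAP list had 9 of 18 genes higher and 2 lower, against 5.99% and 4.75% of all genes, and the cornified list 7 of 12 higher and 2 lower. Nkd1 had 12.6 CPM, against 740 CPM in other knockout cells, Ptn 6.89 against 415 CPM, and Vim, the mesenchymal filament vimentin, 4.60 against 340 CPM. Mki67, a proliferation marker, had 0 UMIs in the 24 cells and 15.4 CPM in the others. With the 11 cells of barcodes in 1 matrix alone, the fetal-like list had 11 of 18 higher and 1 lower and the colonocyte list 8 of 11 higher, against 7.90% and 7.63% of all genes higher and lower.

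S100a4-led cells, 9 of 10 in the knockout library, had most of the measured squamous genes higher. Of 15 measured cornified envelope and squamous genes, 13 were higher in the 9 knockout cells, against 7.58% of all genes higher and 6.22% lower, with a median log2 ratio of 1.47. With barcodes of 1 matrix alone it was 17 of 18 in 6 cells, against 9.10% and 8.20% of all genes. Over all high-score knockout cells 12 genes of the list were measured. Genes that entered only through these few cells cannot count as lower. Ly6d, a surface protein of squamous and basal cells, had 1798 CPM, against 169 CPM in other knockout cells, though 1 cell held 56.7% of its UMIs. The cytokine Il18 was 7.60-fold higher, with UMIs in 4 of 9 cells, and Ppbp, a neutrophil chemokine, 16.1-fold, with UMIs in 5. S100a3, the neighbour of S100a4, was 12.6-fold higher, and transcripts of S100a3 and S100a4 overlap the same annotated locus Gm42674 on the same strand, so their reads may be shared. The neutrophil genes S100a8 and S100a9 had 0 UMIs.

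The 10 S100g-led cells were unlike each other. In the 4 knockout cells 11 of 14 colonocyte and enterocyte genes were higher, against 15.3% of all genes higher and 14.1% lower, but Car1, a carbonic anhydrase of surface colonocytes, had all of its 433 UMIs in 1 cell. Over all high-score knockout cells 9 colonocyte and enterocyte genes were measured, and genes that entered only through these 4 cells cannot count as lower. In the 6 control cells 6 of 6 measured chemokines were higher, against 5.73% of all genes higher and 5.13% lower, and Cxcl1, a neutrophil attractant, had 1024 CPM, against 288 CPM in other control cells, with UMIs in 5 of 6. The median over the 6 cells was 2.77 per 10000 UMIs, and 1 cell held 86 of the 196 UMIs. With barcodes of 1 matrix alone it was 5 of 5 chemokines in 5 cells, against 6.09% and 6.27% of all genes. A chemokine below the required level in both the 6 cells and other control cells was not counted. Cxcl10, with 1 UMI in the 6 cells (5.23 CPM), was so left out, though its level in other control cells was higher. A chemokine that entered only through the 6 cells cannot count as lower. Cxcl5 had 34 of its 37 UMIs in 1 cell and UMIs in 2 of 6, while Cxcl16 had UMIs in 5 of 6. S100g lies within the span of Ctps2 on the opposite strand, and the strand setting of the counting is not stated in the sources used here.

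The 6 Smpx-led cells, all in the knockout library, went the other way. They were shallow, with a median of 11415 UMIs, and 10 of 11 measured cornified genes, 10 of 17 fetal-like genes and 9 of 14 p53 targets were 2-fold lower, against 12.5% of all genes lower and 16.7% higher. Vim had 3992 CPM, against 340 CPM in other knockout cells, and the metallothioneins Mt3 and Mt4, which bind zinc, were 8.66-fold and 9.27-fold higher. The 4 Il1a-led cells, also all in the knockout library, had 8 of 12 heat shock genes higher and 6 of 15 NF-kB genes higher and 1 lower, against 12.5% and 11.9% of all genes. Hspa1a had all its 90 UMIs in 1 of them and Sprr2b 181 of 184 UMIs in 1.

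Clustering without the 6 genes did not gather the high-score cells into a cluster of their own. One cluster, led by Inhba, Sprr1a, Clu, Fn1 and Pla2g4a, held 43 of the 84 (41 knockout and 2 control), where they made up 14.8% of its knockout cells: 22 led by S100a7a, 10 by Ccl5, 7 by S100a4, 3 by Il1a and 1 by S100g. The remaining 41 were spread over 9 other clusters, 7 of them in a cluster of low depth with a median of 3710 UMIs. A cluster of 32 cells with a median of 5933 UMIs held 4, all among its 23 knockout cells (17.4%). It held the cells ranked 1 and 3 by score, with 4685 and 6662 UMIs and 3.76% and 0.0150% from mitochondrial genes. Another cluster of 32 cells held 4, all among its 28 knockout cells (14.3%). Among its 15 nearest neighbours a high-score cell had a mean of 1.93 high-score cells and another kept cell 0.211, and 19 high-score cells had none. Compared with other cells of the same clusters, only 14 genes were 2-fold higher and 12 lower in high-score knockout cells, against 129 and 83 with all other cells. In the control library 71 genes were higher and 31 lower by the same measure.

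The overlap with cells chosen by other genes was partial, and largest for interferon genes. Each of the sets below holds 2% of all kept cells. Of the highest 2% by Tmprss11d, Asprv1 and Krt16, a squamous set, 7 were among the 84 (8.33% of each list). Of these 7, 5 were led by Ccl5 and 2 by S100a4. Of the highest 2% by Clca4a, Muc3 and Car1, a surface colonocyte set, 4 were among the 84 (4.76%). Of the highest 2% by Ifit1, Cxcl10, Rsad2, Oasl1 and Isg15, 17 were among the 84 (20.2%), and 15 of these 17 were led by Ccl5.

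More genes passed 2-fold between knockout and control high-score cells than between the other cells of the libraries. Of 3538 genes measured, 197 were 2-fold higher in the 68 knockout than in the 16 control cells (5.57%) and 367 were lower (10.4%), while among other kept cells it was 51 (1.56%) and 57 (1.74%) of 3270. The median over all genes was -0.16 on the log2 scale, and with this median set to 0 the counts were 263 higher and 268 lower. The 2 groups also differ in makeup: 41 of 68 knockout cells but 2 of 16 control cells lay in the cluster led by Inhba and Sprr1a, and 9 of the control cells but 0 knockout cells lay in 2 clusters led by Nusap1, Ube2c and Ccnb1 and by Fgfbp1 and Krt4. The part of this makeup and of the smaller number of cells in the counts was not tested. N6amt1, the deleted subunit, had 3.20 CPM in knockout and 31.3 CPM in control high-score cells, and 6.20 and 34.3 CPM in knockout and control other cells.

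Mt3 and Mt4 had 276 and 292 CPM in knockout high-score cells, against 3.92 and 7.83 CPM in control high-score cells, and 445 and 552 CPM in knockout other cells, against 129 and 141 CPM in control other cells. Fn1, the matrix protein fibronectin, had 104 CPM in knockout and 5.87 CPM in control high-score cells. Lgals2, a galectin, had 72.0 CPM in knockout and 3.92 CPM in control high-score cells, and 22.4 and 24.9 CPM in knockout and control other cells. Car1 had 270 and 3.92 CPM, but its knockout value rests largely on the S100g-led cell described above. Sprr2b, a cornified envelope precursor, had 120 CPM in knockout high-score cells, mostly from 1 Il1a-led cell, and 0 UMIs in control ones.

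The 6 genes that were lowest in knockout relative to control high-score cells were all genes of G2 phase and mitosis, which reached 50 CPM only in the control high-score cells. Ccnb1, the mitotic cyclin B1, had 0.533 CPM in knockout and 121 CPM in control high-score cells, against 34.4 and 41.9 CPM in knockout and control other cells. Ccna2, Ccnb2, Racgap1, Tpx2 and Nusap1 had 0.533 to 1.07 CPM in knockout and 58.7 to 106 CPM in control high-score cells. Of the measured G2 and M phase genes, 5 of 7 were 2-fold lower in high-score than in other knockout cells, against 2.58% of all genes. Their median log2 ratio was -3.21. In the control library 10 of 23 were higher, against 3.40% of all genes, with a median of 0.94. The 7 and the 23 are different sets. A gene that reached 50 CPM only in the high-score cells cannot count as lower, and 1 that did so only in the other cells cannot count as higher. The control median rests on few cells: 3 of 16 lay above the 95th percentile of other control cells, all 3 with a barcode present in both matrices. Without shared barcodes the list's median was -0.18 in the control library and -1.95 in the knockout library.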

How the data were processed

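Single-cell RNA was measured by droplet-based 3′ chemistry in 1 knockout and 1 control library, each deposited as 1 matrix for 8 sample records. Per the file headers, Cell Ranger 3.1.0 wrote the deposited values, which are raw UMI counts per gene and barcode. The build was mm10, per the submitters' processing notes. The matrices held 38860718 UMIs (knockout) and 72223578 UMIs (control).

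Cells were filtered and scored as described above, with Python 3.11.15, numpy 2.4.6, scipy 1.17.1, pandas 2.3.3 and scanpy 1.11.5. Counts were summed over high-score and over other cells of a library and scaled to CPM. Ratios carry exact conditional binomial 95% intervals, shares exact Clopper-Pearson intervals; a count of 0 was set to a floor of 3 counts. All cover counting error only. With 1 library per group there was no test. Scrublet, run through scanpy, marked 3 knockout and 12 control cells by its automatic threshold, too few to have worked. A list by expected rate (18 and 58 cells) held no high-score cell and was removed only as an alternative. Clusters (leidenalg 0.10.2) left out the 6 genes. edgeR 4.0.16 gave only TMM scaling factors for an alternative. The ratio computation was tested on simulated data.

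Named genes were the 6 of the score, fixed markers, the 15 most raised and 10 most lowered by the smaller change of the 2 libraries, up to 4 per list, and 6 in each direction between knockout and control; a gene to be named as raised needed a UMI in 25% or more of high-score cells. Genes named within leading-gene groups were chosen after their values were seen. The members and the 38 lists were chosen with earlier results of these data known. Gene positions came from GENCODE M21. Near-identical copies (Ifit, Sprr2 and Ifnl families, Hspa1a) can share reads and are uncertain.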

Additional observations from a re-analysis of the deposited data

Results flagged for a closer look

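G2 and M phase genes went opposite ways in the libraries with all kept barcodes. The list's median log2 ratio, high-score over other kept cells, was -3.21 in the knockout library and 0.94 in the control library, and Ube2c, which targets cyclins for destruction, lay at -3.76 and 1.42. The medians cover 7 genes in the knockout and 23 in the control library, 3 of 16 control cells lay above the 95th percentile of other control cells, and without shared barcodes the medians were -1.95 and -0.18. The cornified envelope gene Sprr2a3, whose reads may be split with near-identical copies, lay at 1.499 in the knockout and -1.69 in the control library. Hspa1a, a heat shock chaperone with the near-identical copy Hspa1b, lay at 1.06 and -1.41. These differences between the libraries were not tested, since each is 1 library.

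Barcodes that were removed for fewer than 2000 UMIs also reached the lowest high-score value: 24 of 469 in the knockout library (5.12%) and 41 of 800 in the control library (5.12%). Their median depths were 759 and 944 UMIs, and below 1689 UMIs a single UMI of 1 of the 6 genes is enough to reach it.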

How the results depend on the processing

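No paired analysis was possible because each group is 1 library, and no replicate could be left out. Under the alternatives 84 main values moved and 273 did not, and of single genes and other lists 408 moved, 14 reversed and 1452 did not move. Main lists took the other sign in 18 cases; where a value below moved, the cause was not tested unless the setting itself gives it. The settings without Ccl5-led cells, with other totals or with copies of shared barcodes removed were chosen after seeing the data.

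The share of high-score cells was 2.27% (knockout) and 0.298% (control) with the top 1%, 10.6% and 1.86% with the top 5%, 2.00% and 2.01% with the top 2% within each library, 3.09% in the knockout library without shared barcodes, and 1.58% in the control library over all barcodes, where the median fell to 1214 UMIs and 738 genes. Genes higher and lower in knockout high-score cells numbered 238 and 222 at 20 CPM, 71 and 43 at 100 CPM, 1106 and 1144 with no minimum, 332 and 237 at 1.5-fold, 14 and 12 within the same clusters, and 79 and 38 with the top 5%. In the control library they numbered 238 and 220, 57 and 32, 1081 and 859, 350 and 201, 71 and 31, and 54 and 12, with 444 and 294 after thinning, and 144 lower without Ccl5-led cells. Knockout over control, they numbered 438 and 860 at 1.5-fold, 502 and 707 at 20 CPM, and 96 and 185 at 100 CPM; TMM scaling gave 233 and 297.

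The interferon median in the knockout library was 0.39 with no minimum, 1.02 as a mean over cells, 0.97 against cells matched on UMIs, 0.16 within clusters, 0.52 thinned, 0.28 without shared barcodes, 1.21 with the top 1%, 0.32 with the top 5% and -0.20 without Ccl5-led cells; in the control library it was 2.36 at 100 CPM, 2.07 thinned, 1.27 without shared barcodes, 1.01 with the top 5% and 0.14 without Ccl5-led cells. The G2 and M median was -1.95 (knockout) and -0.18 (control) without shared barcodes, and in the control library 0.32 within clusters and 0.22 with the top 5%. The fetal-like median was in the knockout library 0.96 at 100 CPM, 0.76 with no minimum, 0.71 matched on UMIs, 0.16 within clusters, 0.66 without shared barcodes and 0.94 without Ccl5-led cells, and in the control library 0.70 as a mean over cells, 0.57 matched, 0.58 within clusters, 0.69 and 0.67 with the top 1% and 5%, and 1.14 without Ccl5-led cells. The cornified median was 0.91 with no minimum, 0.13 within clusters and 0.93 with the top 1% (knockout), and 1.51, 0.76 within clusters, 0.59 without shared barcodes and 0.75 with the top 5% (control). In the control library NF-kB genes lay at 0.32 at 20 CPM, 0.46 as a mean over cells and 0.86 thinned, and apoptosis genes at 0.53 with the top 1%.

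Among main lists the sign turned for interferon genes in the knockout library (-0.20, without Ccl5-led cells), G2 and M genes in the control library (-0.18, without shared barcodes), and NF-kB and apoptosis genes in both libraries. Among other values signs turned for knockout chemokines at 20 CPM (-0.10), M cell genes and Wif1 within clusters (-0.013 and 0.030) and Krt20 without shared barcodes (0.76), and in the control library for Fgfrl1 thinned (0.054), Clu with the top 1% (-0.046) and Nr4a1 with the top 5% (0.083). Without Ccl5-led cells they turned in the knockout library for Cxcl10 (-1.24), Ifit1 (-0.95), Rsad2 (-0.997), Ifit3 (-0.17) and Oasl1 (-0.33) and in the control library for Cxcl10 (-2.56) and Ifit1 (-0.70). With 16 control cells, a gene without a UMI can lie at up to 5.87 CPM.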
